A study of Mus musculus with 9 samples.

Results

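The transcripts described here are those of 10 genes that encode feedback inhibitors of MAP kinase signalling: the dual-specificity phosphatases Dusp1, Dusp4, Dusp5, Dusp6, Dusp8 and Dusp10, the Sprouty proteins Spry1, Spry2 and Spry4, and the Sprouty-related Spred1. They were chosen by name from the table of heart RNA counts, which lists 13890 genes with values, and each of the 10 was present. All 10 also passed the filter on low counts, which kept 13364 genes.

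MAP kinases (ERK, JNK and p38) carry signals from growth factor receptors, hormones and stress to the nucleus by phosphorylation. Dual-specificity phosphatases remove those phosphates from the kinases themselves. Sprouty and Spred proteins act further up, between the receptor tyrosine kinases and Raf. Several of these inhibitors are themselves induced by the kinases they restrain, so their transcripts are often read as a record of recent pathway activity, and in the heart ERK, JNK and p38 signalling is studied in growth and in the response to load and stress.

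RNA came from hearts of 9 male mice of the NSG strain, whose immune deficiency lets human tumour cells grow, with 3 mice in each of 3 groups. S mice were sham-operated and received saline, T mice were labelled as carrying HCT116 cells, a human colorectal cancer line placed in the spleen, and A+T mice were labelled as carrying HCT116 cells and receiving ACVR2B/Fc weekly. ACVR2B/Fc is a soluble receptor that binds activins, myostatin and related ligands. By the labels, the mice were 8 weeks old when injected and were killed about 3 weeks later (the study's methods give a few days more). No library here is labelled as coming from a tumour-free mouse given ACVR2B/Fc. The tumour cells are human and grow in a host without lymphocytes, which limits the model, and the T and A+T labels do not state how large the tumours were in each animal.

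The label T needs care. Across the genes that the study's own gene list shares with the counts, the fold changes of T vs. S followed those listed for ACVR2B/Fc-treated sham animals closely, and those listed for tumour hosts only loosely. The mismatch may lie in the sample labels or in the column headings of that list. Whether these hearts carried tumours or had received ACVR2B/Fc was therefore not settled here. The group is called by its label throughout, and every direction given for it is that of the libraries labelled T. All mice shared the NSG genotype (NOD-scid with a null Il2rg). No gene was deleted or introduced in some groups and not in others, so no transcript checks the labels directly.

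Library totals ran from 12392222 to 19732471 counts. A count of 3 stood for 0.152 to 0.281 CPM (counts scaled to a common library size, on the TMM scale, which allows for differences in library composition). The lowest count of any member was 18 (Dusp4) and the highest 2155 (Dusp1). Ribosomal RNA (Rn45s) made up 4.57% to 19.6% of each library. The cardiomyocyte markers Myh6, Tnnt2, Tnni3, Actc1, Ryr2 and Pln summed to between 38700 and 61070 CPM in every library. The 4 airway and lung transcripts in the table, Scgb1a1, Scgb3a1, Sftpb and Bpifa1, which heart muscle should lack, summed to 167 CPM in T replicate 2 and 1278 CPM in A+T replicate 3 and to between 0.498 and 3.20 CPM in the other 7 libraries. Counts of called members and of called pathway genes are therefore also given without these 2 libraries.

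The start regions of 5 members are shown because these are the genes with the clearest differences or the largest spread, and because they differ in the control elements they hold. Each run is the 200 bases that end 50 bases before the RefSeq start, on GRCm38.p6, written on the coding strand. Capitals mark a cyclic AMP response element (CRE, TGACGTCA), the site of CREB family factors, or a CArG box, the site of serum response factor.
Dusp1 (chr17:26508523-26508722, minus strand): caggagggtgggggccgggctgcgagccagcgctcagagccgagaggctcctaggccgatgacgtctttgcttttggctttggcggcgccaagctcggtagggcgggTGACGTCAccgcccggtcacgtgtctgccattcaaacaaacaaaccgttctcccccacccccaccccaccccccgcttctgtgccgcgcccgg
Dusp5 (chr19:53528895-53529094, plus strand): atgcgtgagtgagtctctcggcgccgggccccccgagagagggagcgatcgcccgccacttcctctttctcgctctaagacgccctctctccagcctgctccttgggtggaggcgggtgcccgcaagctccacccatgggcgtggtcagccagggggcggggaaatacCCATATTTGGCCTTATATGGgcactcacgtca
Dusp8 (chr7:142095335-142095534, minus strand): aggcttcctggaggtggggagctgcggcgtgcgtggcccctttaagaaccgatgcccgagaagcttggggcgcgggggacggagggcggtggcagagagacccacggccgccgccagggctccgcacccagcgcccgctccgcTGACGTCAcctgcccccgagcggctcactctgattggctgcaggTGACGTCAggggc
Dusp10 (chr1:184034131-184034330, plus strand): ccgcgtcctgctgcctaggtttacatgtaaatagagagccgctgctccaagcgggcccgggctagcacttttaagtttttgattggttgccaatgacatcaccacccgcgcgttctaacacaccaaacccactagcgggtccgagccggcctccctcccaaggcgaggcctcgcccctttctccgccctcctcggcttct
Spry1 (chr3:37639697-37639896, plus strand): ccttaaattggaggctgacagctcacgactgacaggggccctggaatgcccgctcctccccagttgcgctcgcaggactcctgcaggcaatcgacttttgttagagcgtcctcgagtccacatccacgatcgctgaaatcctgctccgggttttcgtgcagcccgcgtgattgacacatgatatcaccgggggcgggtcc

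Windows of 250 bases before the start were listed for 8 of the 10 members (all but Dusp4 and Spry4) and were searched on both strands. The complete CRE was found in 2 of the 8, Dusp1 and Dusp8, against 1.55% of 32851 windows of the same length. In Dusp1 it lay 143 to 136 bases before the start. Dusp8 held 2 copies, at 107 to 100 and 63 to 56 bases before the start. Dusp5 alone held CArG boxes, 2 side by side at 82 to 63 bases before the start, against 1.47% of all windows. The shorter core TGACG, which is part of the CRE, was found in 3 of the 8 (Dusp1, Dusp5 and Dusp8) and in 17.8% of all windows. The AP-1 letters TGANTCA and the ETS letters CCGGAAG were found in 0 of the 8 windows, and in 6.75% and 6.91% of all windows. The starts used for Dusp8 and Dusp10 lie inside introns of longer annotated transcripts. A match of letters is a description of the sequence and shows no binding.

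On the per-length scale of the deposited log2 values, Dusp1 was the most abundant of the 10 in sham hearts, at 5.39 ± 0.31 (SD, n = 3). Spry1 (3.46 ± 0.31), Dusp8 (3.37 ± 0.16), Spry2 (3.35 ± 0.13), Dusp5 (2.92 ± 0.66) and Dusp6 (2.53 ± 0.07) followed, and each overlapped the next in that order. Spred1 stood at 2.26 ± 0.14, below every library of Dusp6, and Dusp10 (1.80 ± 0.12) and Spry4 (1.73 ± 0.09) lay below Spred1 and overlapped each other. Dusp4 was lowest, at −0.32 ± 0.44. All other levels below are in CPM and are compared only between libraries for the same gene.

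**Figure D1:**
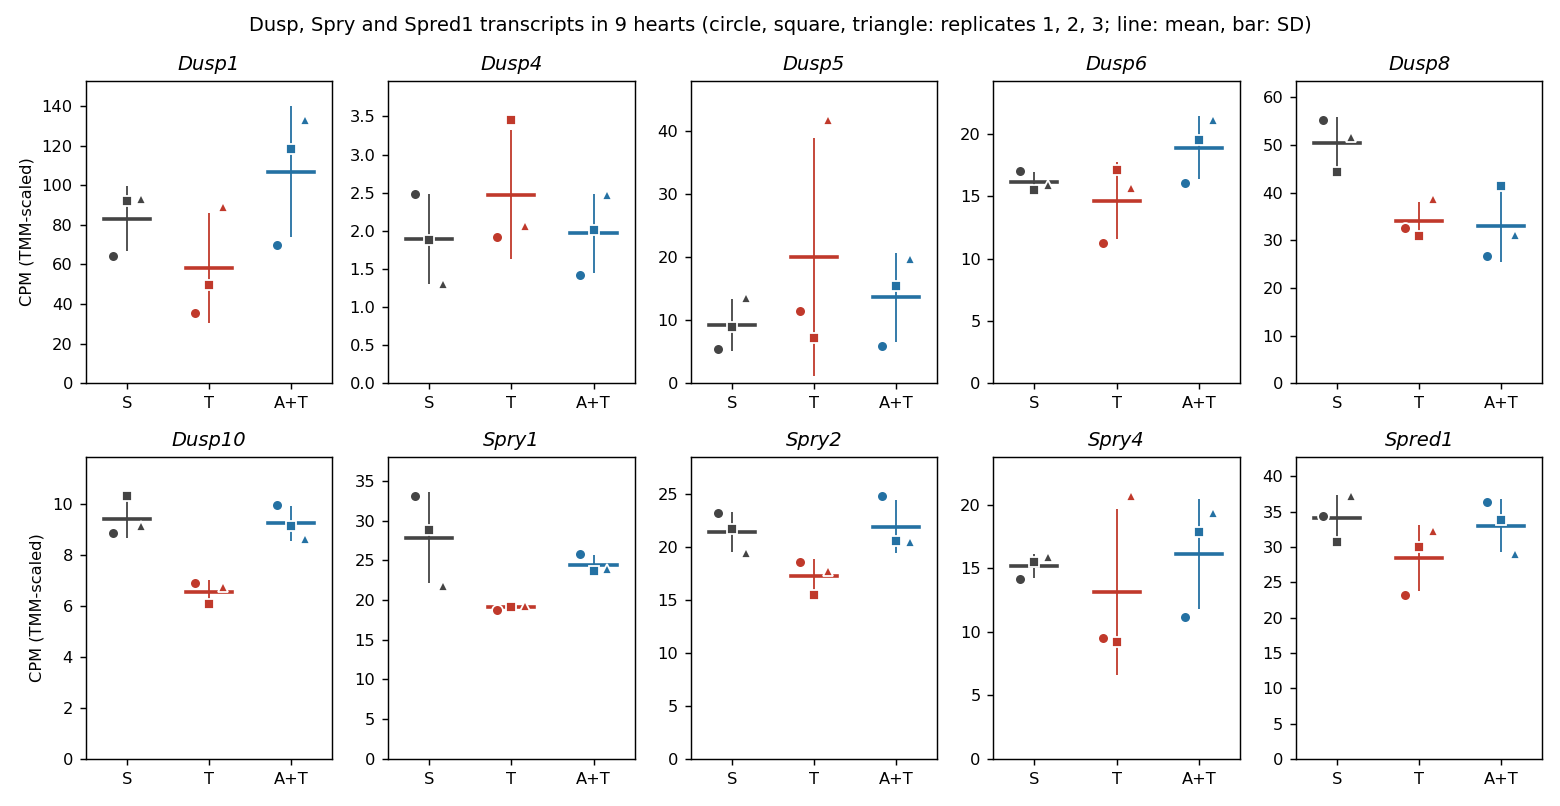
TMM-scaled CPM (vertical axes, starting at 0) of the 10 members in the 9 hearts, grouped as S, T and A+T; points are libraries (circle, square and triangle for replicates 1, 2 and 3), thick lines are group means and thin bars are SD. Dusp8, Dusp10, Spry1 and Spry2 were lower in every T library than in every S library, and Dusp1, Dusp5 and Spry4 had a T replicate 3 far above the other T libraries.

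The design gives 3 comparisons. By the labels, T vs. S asks what differed in tumour hosts, A+T vs. T asks what differed in hosts given ACVR2B/Fc, and A+T vs. S sets those hosts beside the sham animals. The doubt about the label T holds for the first and second of these. A member is called where edgeR's quasi-likelihood test gave a Benjamini-Hochberg adjusted P under 0.05 over all 13364 genes. Each group enters 2 of these comparisons, so the values of a gene in them are not independent of each other.

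In T vs. S, 8 of the 10 members were fitted lower and 2 higher, with a median log2 fold change of −0.29 against −0.0038 over all genes tested. Dusp10, Spry1 and Dusp8 fell, which is 3 of 10 called lower, where 11% of all genes tested were called lower and 21.2% were called in either direction. The 3 T libraries lay below the 3 S libraries without overlap for 4 members (Dusp8, Dusp10, Spry1 and Spry2), against 21.5% of all genes tested, and above them for 0 members, against 21.1%. By edgeR, 0 members were called higher, against 10.3% of all genes, and 4 had an unadjusted P under 0.05 in either direction, against 35.4%. Those 4 were lower in T, and none of them differed by 1.5-fold, a limit that 14.2% of all genes passed together with an unadjusted P under 0.05.

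In A+T vs. T, 7 of the 10 were fitted higher, with a median of 0.33 against 0.0098 over all genes. Only Dusp10 was called higher, 1 of 10, where 3.09% of all genes were called higher, 2.79% lower and 5.88% in either direction. The A+T libraries lay above the T libraries without overlap for Dusp10, Spry1 and Spry2, against 12.3% of all genes, and below them for 0 members, against 13.1%. An unadjusted P under 0.05 was reached by 5 members, against 22.4% of all genes.

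In A+T vs. S, 6 were fitted higher and 4 lower, with a median of 0.04. Dusp8 was the only member called there, 1 of 10, lower in A+T, where 3.64% of all genes were called lower, 4.67% higher and 8.31% in either direction. It was also the 1 member whose libraries did not overlap, against 16.5% of all genes lower and 16% higher in A+T. Dusp8 alone had an unadjusted P under 0.05, against 26.1% of all genes, and alone passed it with a 1.5-fold difference, against 8.91%.

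**Figure D2:**
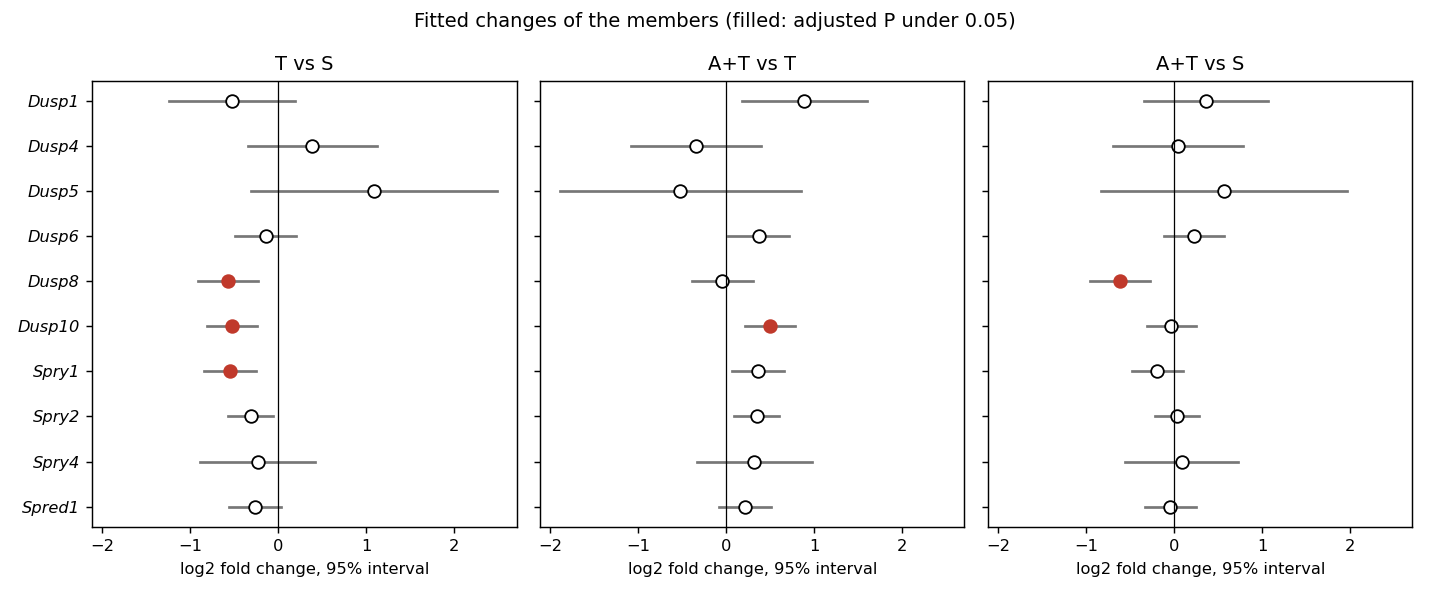
Log2 fold changes of the 10 members (horizontal axes) from edgeR in the 3 comparisons, with 95% confidence intervals; filled points have an adjusted P under 0.05 over all genes tested. Most points lie left of 0 in T vs. S (8 of 10) and right of 0 in A+T vs. T (7 of 10), and the widest interval in each panel is that of Dusp5.

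Dusp10 and Dusp8 encode the phosphatases of this set that act mainly on JNK and p38. Dusp10 stood at 8.85, 10.3 and 9.11 CPM in the S libraries, at 6.88, 6.06 and 6.74 CPM in the T libraries, and at 9.96, 9.12 and 8.63 CPM in A+T. The T libraries were the 3 lowest of the 9, and the S and A+T libraries overlapped. It fell by 0.53 on the log2 scale in T vs. S (SE 0.13, edgeR adjusted P = 0.0153) and rose by 0.49 in A+T vs. T (SE 0.13, edgeR adjusted P = 0.0486). The A+T vs. S difference was −0.03, with a 95% interval from −0.30 to 0.24.

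Dusp10 was the member with the smallest spread within groups, a SD of 0.106 in log2 CPM against a median of 0.169 over all genes, and 78.3% of genes tested spread more. Its counts were low, between 72 and 203 in a library. The fall in T was not called when S replicate 2 or T replicate 2 was left out, nor under library size scaling alone. The rise in A+T vs. T was less stable. Its fitted value stayed between 0.44 and 0.54 under every alternative tried, but its adjusted P lay between 0.0381 and 0.175, and leaving out any single library other than A+T replicate 3 ended the call.

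Dusp8 stood at 55.1, 44.4 and 51.7 CPM in S, at 32.7, 30.9 and 38.6 CPM in T, and at 26.6, 41.3 and 31.1 CPM in A+T. Every T and every A+T library lay below every S library, and the T and A+T libraries overlapped. Dusp8 fell by 0.57 in T vs. S (SE 0.15, edgeR adjusted P = 0.0258) and by 0.61 in A+T vs. S (SE 0.15, edgeR adjusted P = 0.0382). The difference between A+T and T was −0.04, with a 95% interval from −0.39 to 0.30.

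Dusp8 and Dusp10 therefore showed different orders of the 3 groups, with Dusp10 in A+T beside S and Dusp8 in A+T beside T. The difference between these genes' patterns was not tested. The fall of Dusp8 in T vs. S was not called without S replicate 1, S replicate 3, T replicate 1 or T replicate 2. Its fall in A+T vs. S was not called when only S and A+T entered the fit (edgeR adjusted P = 0.0604), nor without any 1 of the S libraries, T replicate 1, A+T replicate 1 or A+T replicate 3.

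Spry1, Spry2 and Spry4 encode inhibitors of receptor tyrosine kinase signalling to ERK. Spry1 stood at 33.1, 28.8 and 21.7 CPM in S, at 18.8, 19.1 and 19.3 CPM in T, and at 25.8, 23.7 and 23.8 CPM in A+T. The T libraries were the 3 lowest and nearly equal, with the highest 1.03 times the lowest, whereas the S libraries ranged over 1.52 times. Spry1 fell by 0.55 in T vs. S (SE 0.13, edgeR adjusted P = 0.0154). The value for A+T vs. T was 0.36 (SE 0.13), which did not pass (edgeR adjusted P = 0.146), although no A+T library overlapped T. A+T vs. S was −0.19, with a 95% interval from −0.48 to 0.10. The fall in T was not called without S replicate 1, S replicate 2 or T replicate 1.

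Spry2 stood at 23.2, 21.7 and 19.4 CPM in S, at 18.6, 15.5 and 17.8 CPM in T, and at 24.8, 20.5 and 20.5 CPM in A+T. The T libraries were again the 3 lowest of the 9. The differences were −0.31 in T vs. S (SE 0.12, edgeR adjusted P = 0.0797) and 0.35 in A+T vs. T (SE 0.12, edgeR adjusted P = 0.108), and neither passed. A+T vs. S was 0.03, with a 95% interval from −0.22 to 0.29.

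Spred1, which encodes a membrane protein that brings neurofibromin to Ras, stood at 34.3, 30.7 and 37.2 CPM in S, at 23.2, 30.0 and 32.2 CPM in T, and at 36.3, 33.8 and 29.0 CPM in A+T. The 3 groups overlapped, with T replicate 1 the lowest library. Its differences were −0.26 in T vs. S, 0.22 against T in A+T and −0.04 against S in A+T, and none passed (lowest edgeR adjusted P = 0.189).

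Dusp6 encodes a cytoplasmic phosphatase selective for ERK and is widely used as a readout of ERK activity. It stood at 17, 15.5 and 15.9 CPM in S, at 11.2, 17.1 and 15.6 CPM in T, and at 16.1, 19.5 and 21.1 CPM in A+T. T replicate 1 was the lowest library, and the other T libraries lay among or above those of S. T vs. S was −0.14, with a 95% interval from −0.49 to 0.20, and it was 0.02 without T replicate 1. A+T vs. T was 0.37 (SE 0.16, edgeR adjusted P = 0.197) and A+T vs. S was 0.23, with a 95% interval from −0.12 to 0.57.

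Dusp1 and Dusp5 encode nuclear phosphatases, Dusp1 acting on JNK, p38 and ERK and Dusp5 on ERK, and both are quickly inducible. Dusp1 stood at 64.1, 91.9 and 93.2 CPM in S, at 35.3, 49.9 and 89.2 CPM in T, and at 69.8, 118 and 133 CPM in A+T. T replicates 1 and 2 were the 2 lowest libraries, while T replicate 3 lay within the range of S. T vs. S was −0.53 (SE 0.32, edgeR adjusted P = 0.272). A+T vs. T was 0.89 (SE 0.32), a 1.85-fold difference in the fitted level, with an unadjusted P of 0.0194 and an edgeR adjusted P of 0.134. It was the member that passed a 1.5-fold difference with an unadjusted P under 0.05 in that comparison, a rule that 8.11% of all genes passed. A+T vs. S was 0.36, with a 95% interval from −0.34 to 1.07.

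T replicate 3 decided the calls of Dusp1. Without that library Dusp1 was called lower in T vs. S, at −0.95 (edgeR adjusted P = 0.0429), and higher in A+T vs. T, at 1.33 (edgeR adjusted P = 0.0341). Without T replicate 1, A+T vs. T was 0.63 (edgeR adjusted P = 0.356).

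Dusp5 varied most. It stood at 5.36, 8.93 and 13.6 CPM in S, at 11.4, 7.13 and 41.7 CPM in T, and at 5.88, 15.4 and 19.7 CPM in A+T. T replicate 3 held the highest level of the 9 libraries, 5.85 times the lowest T library, and the groups overlapped. The SD of Dusp5 within groups was 1.0 in log2 CPM, and 1.25% of all genes tested spread more. T vs. S was 1.09 (SE 0.63, edgeR adjusted P = 0.246) and A+T vs. T was −0.52, a value that was 0.56 without T replicate 3. A+T vs. S was 0.57, with a 95% interval from −0.84 to 1.97, so differences of either sign within that interval were not excluded.

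Spry4 stood at 14.2, 15.5 and 15.9 CPM in S, at 9.54, 9.21 and 20.7 CPM in T, and at 11.2, 17.9 and 19.4 CPM in A+T. The S libraries lay close together, and T replicates 1 and 2 lay below them and T replicate 3 above them. Its differences of −0.23, 0.32 and 0.09 in the 3 comparisons, in the order given above, did not pass (lowest edgeR adjusted P = 0.565). Dusp4, a nuclear phosphatase also induced by ERK, was found at 2.49, 1.88 and 1.30 CPM in S, at 1.92, 3.45 and 2.06 CPM in T, and at 1.42, 2.01 and 2.46 CPM in A+T. Between 18 and 58 counts were behind these values. The groups of Dusp4 overlapped, and its differences of 0.39, −0.34 and 0.04 did not pass (lowest edgeR adjusted P = 0.435).

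**Figure D3:**
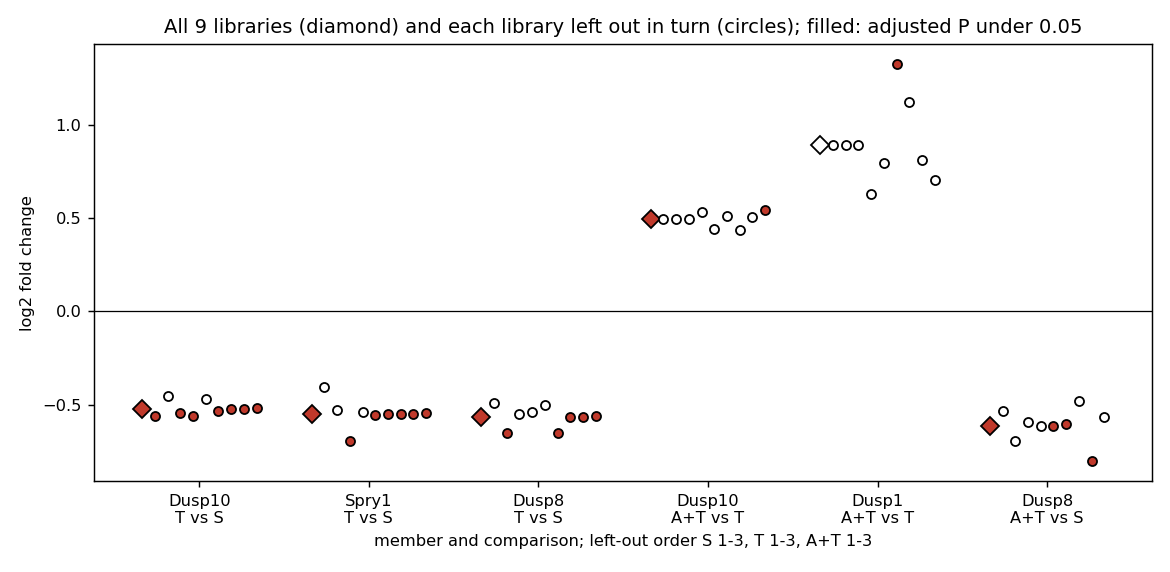
Log2 fold changes (vertical axis) for the 5 called member comparisons and for Dusp1 in A+T vs. T, with all 9 libraries (diamonds) and with each library left out in turn (circles); filled symbols have an edgeR adjusted P under 0.05. The direction was kept in each case, but the calls were not, and Dusp1 in A+T vs. T was called solely without T replicate 3, at 1.33.

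Immediate early genes, which are transcribed within minutes of a stimulus without new protein synthesis, were summed in each library to place the inducible members. Their 21 genes in the table, none of them a member, summed to 672, 888 and 1059 CPM in S, to 572, 676 and 1432 CPM in T, and to 670, 1250 and 1387 CPM in A+T. T replicate 3 was thus the highest T library and A+T replicate 1 the lowest A+T library, as they were for Dusp1, Dusp5, Dusp8 and Spry4. The other 6 members did not have both of these features, and the share of all genes with both was not counted. In S, Dusp1, Dusp5 and Spry4 rose from replicate 1 to replicate 3, as the sums did. Dusp8 did not follow the sums there and was highest in S replicate 1, the library with the lowest sum. Rn45s made up 4.57%, 5.18% and 19.5% of the T libraries and 8.6%, 17.4% and 19.6% of the A+T libraries, in the order of the sums. In S it made up 19.0%, 7.98% and 9.5%, which was not that order. How far this variation between libraries entered the group differences of Dusp1, Dusp5, Dusp8 and Spry4 was not tested. The part of library make-up in it was not tested either.

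**Figure D4:**
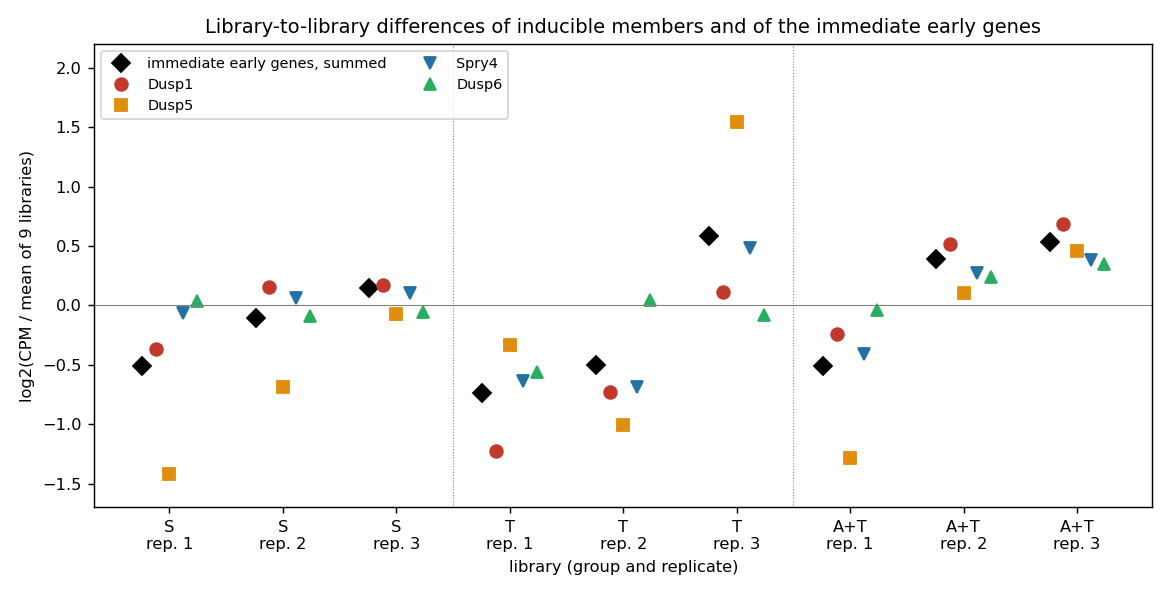
Log2 ratio of CPM to the mean of the 9 libraries (vertical axis) for Dusp1, Dusp5, Spry4, Dusp6 and the summed immediate early genes, for each library (horizontal axis, dotted lines between groups). T replicate 3 and A+T replicates 2 and 3 lie above the mean for the summed genes (1432, 1250 and 1387 CPM) and for Dusp1, Dusp5 and Spry4, whereas Dusp6 in T replicate 3 lies just below it.

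The genes whose log2 CPM followed a member most closely over the 9 libraries were taken from all genes tested, as a description across libraries that share groups. For Dusp1 they were Jun (Pearson r = 0.962), Fos (r = 0.956) and Dhx38 (r = 0.928). Jun and Fos encode the subunits of AP-1 and belong to the immediate early list. For Dusp6 they were Pot1b (r = 0.970), Gata3 (r = 0.969) and S100a4 (r = 0.933), and for Spry4 they were Avil (r = 0.939), Zfp276 (r = 0.933) and Zc3h12a (r = 0.933). The 3 members shared none of their 3 nearest genes, but lists of 3 out of 13364 genes are too short to compare the members by.

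Within the immediate early list, 1 gene was called higher and 4 lower of 21 in T vs. S (23.8% of the list, against 21.2% of all genes), with a median of −0.04. That share is near the background. The Egr genes, zinc finger factors induced through ERK and serum response factor, fell. The level of Egr1 was 62.1 ± 26.8 CPM (SD, n = 3) in sham hearts and 15.2 ± 10.4 CPM in those labelled T (log2 fold change −2.08, edgeR adjusted P = 0.0153), and Egr2 (−2.55) and Egr3 (−2.20) fell from means of 3.0 and 4.0 CPM to means of 0.567 and 0.948 CPM. In T replicates 1 and 2, Egr2 stood at 0.186 and 0.297 CPM, at or near the level of 3 counts, so the size of its fitted fall depends on few reads. Maff, a small Maf factor, rose by 1.18. Against T, Egr1 was the 1 gene called in A+T, higher by 1.96 (edgeR adjusted P = 0.0481). No gene of the list was called higher there with no filter on low counts or with only the groups compared. The same held without S replicate 1, 2 or 3, T replicate 1 or 2, or A+T replicate 2. With 1 library left out, between 0 and 3 genes of the list were called in A+T vs. T. Against S, 0 of 21 were called in A+T by edgeR's quasi-likelihood test and by limma-voom, 1 by DESeq2 and 4 by edgeR's likelihood ratio test, while 4 had an unadjusted P under 0.05. Junb had the smallest P there (1.24, edgeR adjusted P = 0.0629).

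Egr1 fell in T in every library, at 5.51, 13.9 and 26.1 CPM against 44.7, 93.0 and 48.8 CPM in S, with no overlap. Fos, which followed Dusp1, stood at 2.17, 10.5 and 38.1 CPM in T and at 15.1, 32.0 and 40.2 CPM in S, and these overlapped. T replicate 3 was the highest T library of both genes.

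Among 20 other feedback and phosphatase genes, 1 was called higher and 1 lower in T vs. S, 10% of the list against 21.2% of all genes, with a median of 0.0013. Spred2, a relative of Spred1, fell by 0.41 (edgeR adjusted P = 0.0418), and Rasa2, a Ras GTPase-activating protein, rose by 0.40 (edgeR adjusted P = 0.0413). Ppp2ca, a catalytic subunit of protein phosphatase PP2A, fell by 0.33 in A+T vs. T. The tyrosine phosphatase gene Ptpre (0.70) and Rasa2 (0.47) rose in A+T vs. S. Dusp9 and Spry3 were not among the genes listed.

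In the Ras-ERK core of 28 genes, 6 were called lower and 1 higher in T vs. S, with a median of −0.15. These are 25% of the list, near the 21.2% of all genes. Rps6ka2, an ERK-activated kinase of the RSK family, went from 46.3 ± 3.7 to 23.0 ± 1.9 CPM (−1.0, edgeR adjusted P = 0.000861). Elk3, an ETS factor (−0.71), and Ksr1, a scaffold of the cascade (−0.79), also fell. Braf, a kinase that activates MEK, rose by 0.44. Rps6ka1, another RSK, was the 1 gene called in A+T vs. T (0.86) and was also higher in A+T vs. S (0.56). Srf, the serum response factor (−0.50), and Rps6ka2 (−0.57) fell in A+T vs. S.

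Of 22 JNK and p38 pathway genes, 4 were called higher and 4 lower in T vs. S, 36.4% of the list against 21.2% of all genes. Map3k6, an upstream kinase, was 6.98 ± 1.65 CPM in S and 34.2 ± 9.2 CPM in T (2.30, edgeR adjusted P = 0.000362) and was 8.28 ± 2.57 CPM in A+T. Mapkapk2, the main p38-activated kinase, rose by 0.43. Map3k11 (−0.57) and the JNK scaffold Mapk8ip1 (−1.17) fell. The 2 genes called in A+T vs. T were both lower, Mapkapk2 (−0.62) and Map3k6 (−2.05). Map3k8 rose by 0.90 in A+T vs. S, and Map3k11 (−0.37) and Mapkapk3 (−0.36) fell.

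Receptor tyrosine kinases, whose signals Sprouty and Spred proteins restrain, had 3 genes called higher and 10 lower of 23 in T vs. S, 56.5% of the list against 21.2% of all genes, with a median of −0.32. Of the 10 called lower, 5 (Kdr, Pdgfra, Pdgfrb, Tek and Tie1) are also among the endothelial, fibroblast or pericyte markers used here, and the part of cell composition in their fall was not tested. Igf1r rose by 0.99 and Met by 1.19, and the fibroblast receptor Pdgfra and the endothelial receptor Tek fell (−0.87 and −0.84). Kit rose from 0.930 ± 0.269 to 5.13 ± 4.37 CPM in A+T vs. T (log2 fold change 2.5), Pdgfra rose by 0.62 and Erbb3 by 0.43, and Igf1r fell by 0.60. Met rose in A+T vs. S (1.16), and the lymphatic receptor Flt4 fell by 0.60.

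Among 29 growth factor ligands, 5 were called lower and 0 higher in T vs. S (median −0.29). That is 17.2% of the list against 21.2% of all genes, and 13 had an unadjusted P under 0.05 in either direction. The vascular ligands Angpt2 (−1.52), Vegfc (−1.05) and Vegfa (−0.49) fell, as did Fgf16, a heart fibroblast growth factor (−1.33). Angpt2 (1.27) and Vegfc (0.93) rose in A+T vs. T, and Hbegf, a ligand of the EGF receptor, fell by 0.64. Hgf, the ligand of Met, rose by 1.24 in A+T vs. S.

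Of 11 genes commonly read as ERK output, 4 were called higher and 3 lower in T vs. S, 63.6% of the list against 21.2% of all genes. Ccnd1, which encodes cyclin D1, was 34.4 ± 0.6 CPM in S and 11.5 ± 0.8 CPM in T (−1.59, edgeR adjusted P = 1.94e-05) and was 20.7 ± 1.7 CPM in A+T. Epha4 fell by 1.0, and the transcription factor gene Myc and the survival gene Mcl1 rose by 1.33 and 0.60. Ccnd1 rose by 0.86 in A+T vs. T, and the ETS factor gene Etv5 fell by 0.56. Myc rose by 1.43 in A+T vs. S, and Ccnd1 (−0.73), Phlda1 (−1.03) and Epha4 (−0.95) fell. Genes of this list thus changed in opposite directions in the same hearts. Kinase activity was not measured in these libraries. By western blot of heart, the study found phosphorylated ERK above sham in tumour hosts with or without ACVR2B/Fc. It was also raised in ACVR2B/Fc-treated sham animals, and phosphorylated p38 was unaltered.

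In A+T vs. T, between 3.57% (Ras-ERK core) and 18.2% (ERK output genes) of a list was called, against 5.88% of all genes. Receptor tyrosine kinases had 17.4% called there. In A+T vs. S the range was from 0% (immediate early genes) to 45.5% (ERK output genes, 5 of 11), against 8.31% of all genes. Without T replicate 2 and A+T replicate 3, 3 counts in T vs. S became larger. The share of all genes called there also went from 21.2% to 26.4%. Ligands went from 5 to 10 called (8 lower and 2 higher), receptor tyrosine kinases from 13 to 17 (14 lower and 3 higher) and other feedback genes from 2 to 3. The remaining lists had 6 called in the Ras-ERK core, 8 for JNK and p38, 4 immediate early and 6 ERK output genes there. Receptor tyrosine kinases went from 2 to 4 and the Ras-ERK core from 3 to 5 in A+T vs. S. The share of all genes called went from 8.31% to 9.42% there, and from 5.88% to 6.55% in A+T vs. T. Without these 2 libraries, 1 immediate early gene was called in A+T vs. T, lower, in place of Egr1, higher. In A+T vs. S, 1 ligand was called, lower, in place of Hgf, higher.

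**Figure D5:**
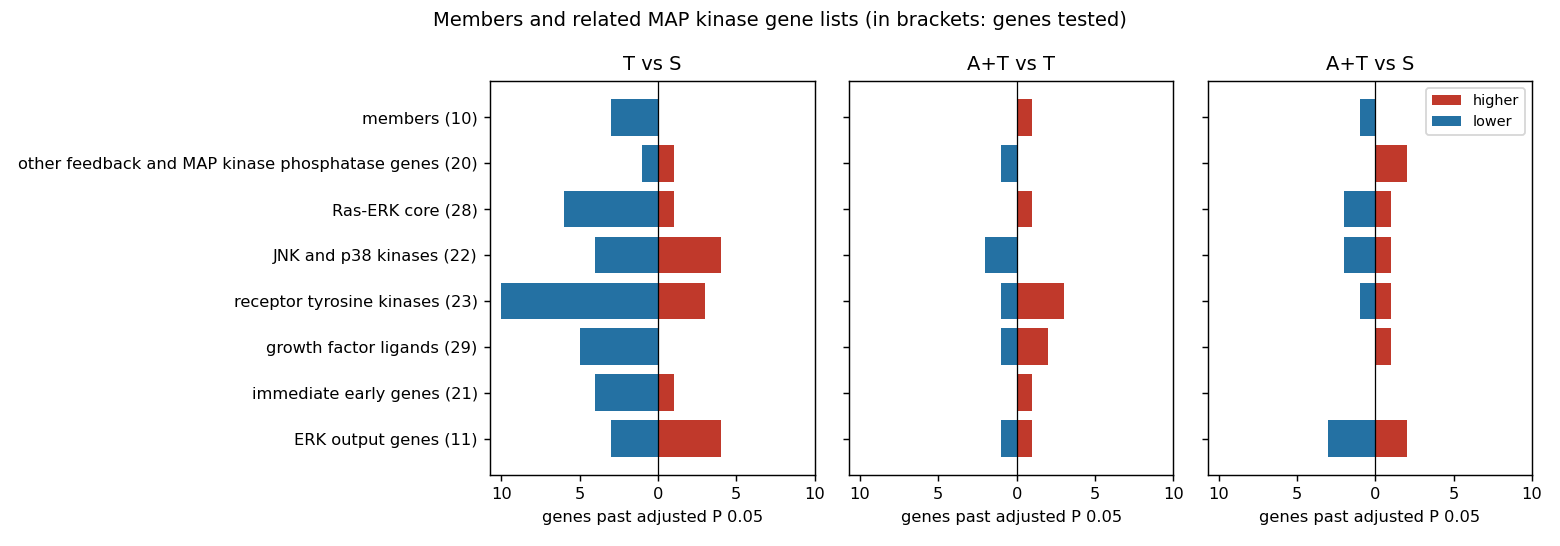
Number of genes called higher (right of 0) and lower (left of 0) at an edgeR adjusted P under 0.05, for the 10 members and 7 related lists (genes tested in brackets), with a panel for each comparison. Of the bars, which count genes in lists of unequal size, the longest is that of receptor tyrosine kinases, 10 lower in T vs. S, and the immediate early genes have none in A+T vs. S.

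Markers of endothelium, fibroblasts and vessel walls also differed between the groups. In bulk tissue, fewer cells of a type and less RNA per cell cannot be told apart. The 8 endothelial markers summed to between 887 and 1022 CPM in S, 536 and 669 CPM in T, and 675 and 861 CPM in A+T, and 5 of the 8 were called lower in T vs. S. The 6 fibroblast markers summed to between 1350 and 1554 CPM in S, 813 and 940 CPM in T, and 1035 and 1509 CPM in A+T, and 6 of 6 were called lower in T. The 6 smooth muscle and pericyte markers summed to between 391.7 and 476 CPM in S, 193 and 265 CPM in T, and 250 and 344 CPM in A+T, and 5 of 6 were called lower in T. No gene of these 3 lists was at 0 in every library. Every T library lay below all others in the endothelial and fibroblast sums, as for Dusp10, Spry1 and Spry2. The smooth muscle and pericyte sums of T and A+T overlapped. Dusp1, Dusp6, Spry4 and Spred1 also had their lowest group mean in T, with overlap between groups. The part of cell composition in the differences of these members was not tested.

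Macrophage markers (6 genes) summed to between 190 and 205 CPM in S, 197 and 221 CPM in T, and 248 and 330 CPM in A+T, and 5 of 6 were called higher in A+T vs. S. Cardiomyocyte markers summed to between 55340 and 61070 CPM in S, 45320 and 52960 CPM in T, and 38700 and 55840 CPM in A+T. These 6 genes did not move together in T vs. S, where Tnnt2 (0.34) and Pln (0.38) were called higher and Actc1 (−0.90) lower. Myh6, with the largest share of the sum, was not called there (−0.58, edgeR adjusted P = 0.0832). No member followed the order of the macrophage sums, in which every A+T library was above every other library. Without the 2 libraries that held airway transcripts, 2 members were called lower in T vs. S (Dusp10 and Spry1). By edgeR, 0 were called in the other 2 comparisons, where 4 (against T) and 1 (against S) still had an unadjusted P under 0.05. The shares of all genes called in that setting were 26.4% in T vs. S, 6.55% in A+T vs. T and 9.42% in A+T vs. S.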

How the data were processed

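RNA of 9 hearts was measured by mRNA sequencing with 75-base paired ends. The authors aligned reads to mm10 with STAR, assigned uniquely mapped pairs to RefSeq genes by strand with featureCounts, and deposited raw counts per gene. They also deposited log2 values. For each gene, log2 CPM minus the deposited log2 value was constant across libraries (median SD 0.00237), and this offset followed exon length (r = 0.804 across 6195 genes), so these values are per length and were used for the order of levels. The step that made them is not given in the sources used here. Rows without a gene symbol or values (3443) were left out.

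Groups came from the tumour label of each sample. Replicates are animals by their numbers, and per the labels RNA of all hearts was isolated and sequenced together. Genes with CPM under 0.5 in more than 4 libraries were removed (526 of 13890). The 3 groups were fitted with edgeR 4.0.16 in R 4.3.3 (TMM, quasi-likelihood test), and P was adjusted by Benjamini-Hochberg over all genes tested. The standard error is the log2 fold change over the square root of F. With 3 against 3, an exact permutation test of 1 gene cannot go below P = 0.1. The reads carry no molecular identifiers, so the level of 3 counts covers counting error only.

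The members and lists were chosen with earlier results of these data known. All members are named in each comparison. From each pathway list, up to 4 called genes with the smallest adjusted P are named, or the gene with the smallest P where none was called, and for Dusp1, Dusp6 and Spry4 the 3 genes with the highest correlation. Genes with per-library values (Egr1, Egr2, Fos) were chosen after their values were seen. Alternatives were limma-voom and limma on the deposited values (limma 3.58.1), DESeq2 1.42.0, the likelihood ratio test of edgeR, other scalings and filters, only the groups compared, and each library left out. Leaving out the 2 libraries with airway transcripts together was chosen after seeing the data. Promoters came from RefSeq on GRCm38.p6, the assembly of mm10. Figures were drawn with matplotlib 3.10.9 in Python 3.11.15.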

Additional observations from a re-analysis of the deposited data

How the results depend on the processing

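No paired analysis was possible because the sample titles give every animal a number of its own and no number is shared between groups. The number of members called in T vs. S was 3 and stayed 3 in 8 alternatives that kept all 9 libraries and with only the groups compared. It was 2 with library size scaling alone, and 0 by an unadjusted P under 0.05 with a 1.5-fold difference. It ranged from 1 to 4 when each library was left out. In A+T vs. T the count of 1 became 0 with DESeq2, limma-voom, library size scaling, no filter, or only the groups compared, and 0 without T replicate 2 and A+T replicate 3 together; with 1 library left out it ranged from 0 to 1. In A+T vs. S the count of 1 became 0 with only the groups compared and 0 without both airway libraries, and ranged from 0 to 1 with 1 library left out. In these fits with a count of 0, between 1 and 5 members had an unadjusted P under 0.05. The cause of these losses was not tested. No scaling moved the median of all genes by 0.1 on the log2 scale.

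Of the single log2 fold changes, 19 changed sign, none of them a value that was called. With 1 library left out, Dusp6 in T vs. S ranged from −0.28 to 0.022, and in A+T vs. T Dusp5 ranged from −0.94 to 0.56 and Dusp8 from −0.24 to 0.090. In A+T vs. S the ranges were −0.16 to 0.29 for Dusp4, −0.089 to 0.041 for Dusp10, −0.065 to 0.099 for Spry2, −0.063 to 0.30 for Spry4 and −0.12 to 0.050 for Spred1. Without both airway libraries, Spry4 was −0.028 in A+T vs. T, and in A+T vs. S Dusp4 was −0.16, Dusp10 0.022, Spry4 −0.064 and Spred1 0.050. With upper-quartile scaling Dusp8 was 0.00038 in A+T vs. T.

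With 1 library left out, the number of calls in T vs. S lay between 6 and 9 for JNK and p38 genes, 10 and 14 for receptor tyrosine kinases, 4 and 9 for the Ras-ERK core, 3 and 6 for ligands, 2 and 6 for immediate early genes, 6 and 7 for ERK output genes and 0 and 2 for other feedback genes. In A+T vs. T, receptor tyrosine kinases ranged from 0 to 5 calls and ligands from 0 to 6, with 0 for both without T replicate 1. JNK and p38 genes had 2 calls each time. Over all genes, the share called in these fits ranged from 13.2% to 28.3% in T vs. S. It ranged from 0.973% (without T replicate 1) to 7.53% in A+T vs. T, and from 2.01% to 8.13% in A+T vs. S. Depth limits Dusp4 most, with 18 to 58 counts in a library.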

Other observations

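The sum of the 10 members was 258, 270 and 279 CPM in S, 170, 188 and 284 CPM in T, and 228, 302 and 308 CPM in A+T. The T libraries thus held both the lowest sums and a library among the higher ones. Atrial markers (Nppa, Myl4, Myl7, Sln and Bmp10) summed to between 3000 and 3084 CPM in S, between 861 and 4554 CPM in T and between 793 and 2055 CPM in A+T. T replicate 2, with the highest atrial sum, also held airway transcripts and the highest Dusp4 (3.45 CPM) of the 9 libraries. The part of sampled tissue in the level of Dusp4 was not tested.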
